A study of Mus musculus with 40 samples.

Results

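The genes followed here act in the epithelial-mesenchymal transition (EMT): the transcription factors Snai1, Snai2, Twist1, Zeb1 and Zeb2, the intermediate filament gene Vim, the matrix gene Fn1 and the N-cadherin gene Cdh2. They were chosen by symbol, and all 8 members were among the 26906 genes of the count table and among the 16878 genes tested. Poly(A) RNA was sequenced from CGR8 mouse embryonic stem cells of strain 129, which had been gathered into epiblast-like aggregates in serum-free N2B27 medium with Activin-A, Fgf2 and KSR. All groups share that medium. One arm was untreated and the other received XAV939 between 0 and 72 h. XAV939 inhibits tankyrase, which keeps Axin from being degraded and dampens the β-catenin branch of Wnt signalling. Each arm has a group at days 3, 4, 5, 6 and 7, which makes 10 groups of 4 libraries, or 40 libraries. The titles name an absence of matrigel for untreated samples and are silent on it for XAV939 samples, so a difference in matrigel cannot be told apart from XAV939. CGR8 is 1 cell line, and the labels do not say whether the libraries of a group came from separate cultures.

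During gastrulation epiblast cells leave an epithelium and become migratory mesoderm and endoderm. Snail, Zeb and Twist factors bind E-box sequences and repress Cdh1, the E-cadherin gene, together with other epithelial genes. Cdh2 then takes the place of Cdh1 at cell contacts, Vim builds the filaments of mesenchymal cells, and fibronectin, the product of Fn1, forms the matrix on which they move. Vim, Zeb1, Zeb2 and Cdh2 are also expressed in neural progenitors, and Snai2 and Twist1 in mesenchyme and neural crest.

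Snai1 is shown with its promoter because it had the largest change with XAV939 of the 8 genes. The sequence is the stretch just upstream of the RefSeq start of Snai1, chr2:167537945-167538194 of GRCm38.p6, plus strand. Capitals mark the E-box CACCTG, a motif of the kind that Snail and Zeb factors bind.

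Snai1 promoter: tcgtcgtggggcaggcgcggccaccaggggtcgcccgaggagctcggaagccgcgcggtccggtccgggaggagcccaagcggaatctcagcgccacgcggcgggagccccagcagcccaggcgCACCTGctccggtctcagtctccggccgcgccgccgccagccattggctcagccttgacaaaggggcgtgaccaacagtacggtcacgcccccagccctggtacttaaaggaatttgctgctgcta

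The CACCTG motif was searched on both strands and is present in 20.21% of 32851 RefSeq promoter windows of 300 bases, from 250 before to 50 after each start. CTTTGAT, the core that TCF/LEF factors bind when β-catenin is active, is present in 3.729% and was not found in the Snai1 window. Neither motif was found in the windows of Twist1, Zeb2 and Vim. Snai2, Zeb1, Fn1 and Cdh2 had no entry in the promoter table. A match is a description of these letters and not a site in use.

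Deposited totals ran from 30197759 to 44086019 counts per library (median 35737152), and the share of mitochondrial counts from 0.915% to 5.46%. Levels are CPM, with totals scaled by trimmed means of M values (TMM), given per library or as the mean ± SD of 4 libraries. At day 3 all 5 epiblast markers (Pou5f1, Nanog, Fgf5, Dnmt3b, Tdgf1) were expressed, summing to between 2745 and 3520 CPM per library, and at day 7 they summed to between 77.5 and 156 CPM. Somite and mesenchyme markers summed to between 1.3 and 2.3 CPM at day 3 and between 121 and 291 CPM at day 7. A pair of untreated libraries stood apart. Day 4 library 1 had a primitive streak marker sum of 1069 CPM against 96.1 to 163 CPM in the other day 4 untreated libraries. Day 6 library 3 had the lowest Zeb1, Zeb2, Cdh2 and Fn1 of its group. It also had the lowest share of mitochondrial counts of all libraries (0.915%). Since Zeb1, Zeb2, Cdh2 and Fn1 are among the genes followed here, leaving out day 6 library 3 is no independent check on them. In bulk RNA, fewer cells of a type and less RNA per cell cannot be told apart.

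All of the 8 genes but Snai1 rose from day 3 to day 7 in each arm, which makes 7 calls in each. Calls are by edgeR's quasi-likelihood test, at an adjusted p (Benjamini-Hochberg, over all genes tested) below 0.05. Of all genes tested, 34.7% were called higher and 32.6% lower in the untreated arm, and 36.8% higher and 34.1% lower in the XAV939 arm. None of the 8 was called lower. The course of each gene is shown by day and arm in the plot of levels.

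**Figure D1:**
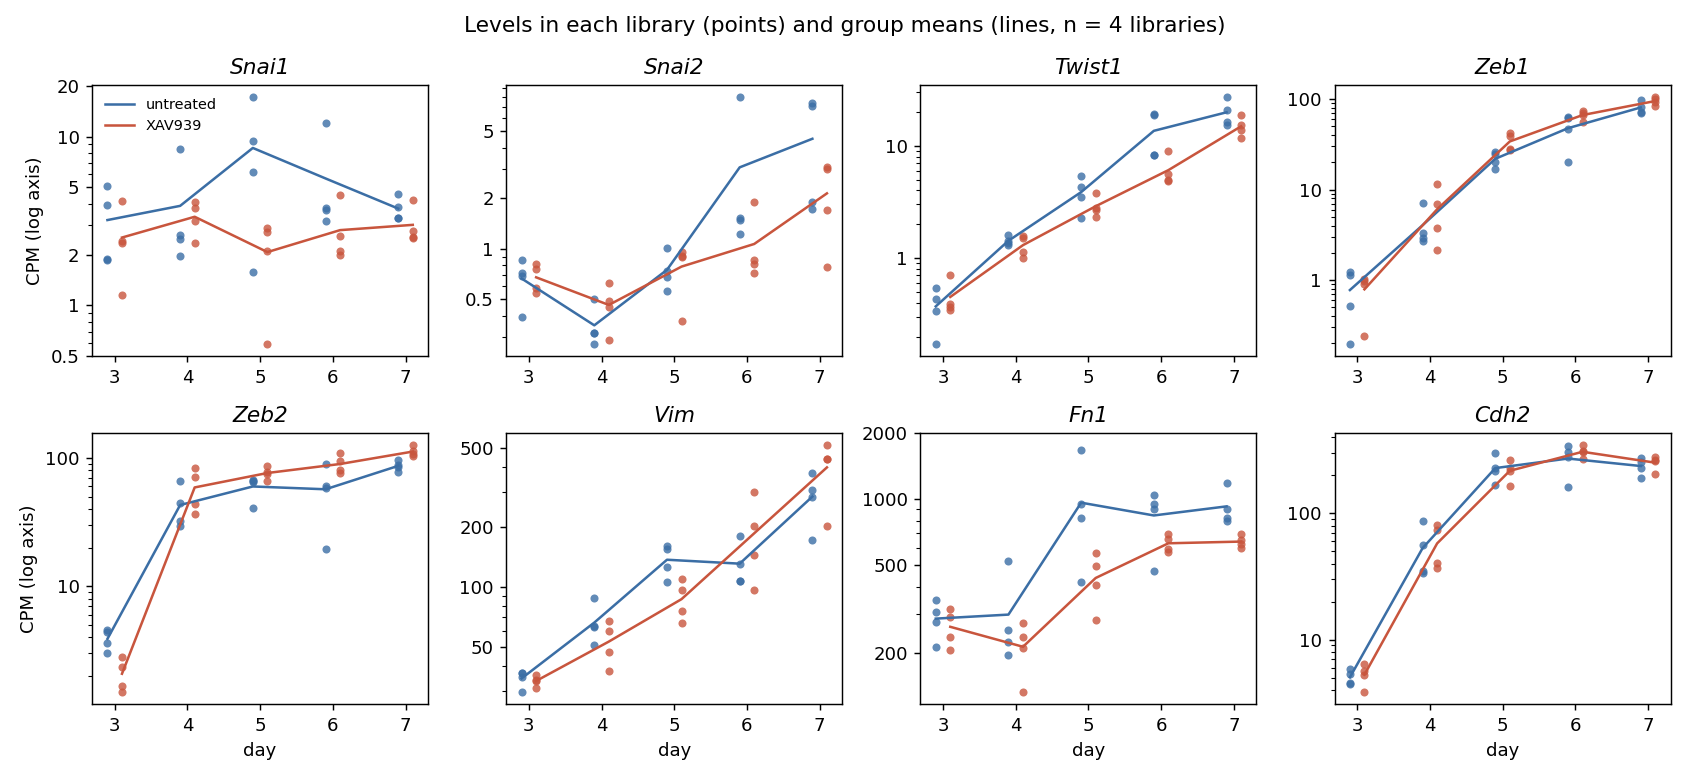
Levels of the 8 genes in CPM on a log axis, against day, with 1 point for each library and lines through the means of 4 libraries per group (blue untreated, red XAV939). All but Snai1 climb in both arms, whereas Snai1 is high in 1 untreated library at day 4, 3 at day 5 and 1 at day 6.

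Cdh2, which encodes N-cadherin (chr18:16588877-16809246 in mm10, minus strand), rose 47.1-fold in the untreated arm and 47.7-fold in the XAV939 arm between day 3 and day 7. In the untreated libraries it was 5.37, 4.50, 5.81 and 4.42 CPM at day 3 and 277, 189, 227 and 256 CPM at day 7. In the XAV939 libraries it was 5.59, 3.85, 6.45 and 5.20 CPM at day 3 and 281, 204, 265 and 258 CPM at day 7. The lowest day 7 library was thus far above the highest day 3 library in each arm. The log2 fold change was 5.56 (SE 0.306, adjusted p = 1.82e-16) in the untreated arm and 5.58 (SE 0.307, adjusted p = 1.3e-16) in the XAV939 arm. Most of the rise lay in the first 2 steps. From day 3 to day 4 the log2 change was 3.40 untreated and 3.45 with XAV939, and from day 4 to day 5 it was 2.11 and 1.91, all called. Neither later step was called in either arm. With only the libraries compared, the XAV939 step from day 5 to day 6 was called (log2 0.52, adjusted p = 0.0254).

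Zeb1 and Zeb2, zinc finger repressors of Cdh1, followed different courses. Zeb1 (chr18:5591860-5775467, plus strand) was between 0.198 and 1.24 CPM in the 8 day 3 libraries and between 69.8 and 105 CPM in the 8 day 7 libraries. Its log2 fold change was 6.68 (SE 0.486, adjusted p = 6.21e-14) untreated and 6.93 (SE 0.494, adjusted p = 3.44e-14) with XAV939. Zeb1 rose in the steps to day 4, day 5 and day 6 in the untreated arm and in the first 2 of them in the XAV939 arm. The untreated step to day 6 (adjusted p = 0.0261) was lost without untreated day 5 library 2 or 4 or untreated day 6 library 1 or 4 (0.0709 to 0.0868), with only the libraries compared (0.0535) and with no filter on low counts (0.053). The XAV939 step to day 6 (0.0631) was called at 0.033 without the 2 libraries that stood apart. It was also called with a replicate block over all days (0.0318) and with only the libraries compared (0.00261). The XAV939 step of Zeb1 to day 7 was called with only the libraries compared (0.0171). Zeb2 (chr2:44983632-45117395, minus strand) had 1 called step in each arm. It went from 3.89 ± 0.710 to 43.0 ± 16.4 CPM between day 3 and day 4 in the untreated arm (log2 change 3.46, SE 0.314, adjusted p = 2.01e-10), and from 2.08 ± 0.601 to 58.9 ± 22.7 CPM in the XAV939 arm (4.81, SE 0.339, adjusted p = 6.67e-13). No later step of Zeb2 was called, except that its untreated step from day 6 to day 7 was called without untreated day 6 library 4 (adjusted p = 0.0286). Per kilobase of exon, the median ratio of Zeb2 to Zeb1 was 5.16 untreated and 5.20 with XAV939 at day 4, and 0.574 and 0.603 at day 7. On this per-kilobase scale Zeb2 was the higher of the pair at day 4 and Zeb1 at day 7, in every library of both arms. The day 7 order depends on the scale, since the exons used span 19942 bp for Zeb2 and 10266 bp for Zeb1. In CPM the day 7 means of Zeb2 and Zeb1 were 86.8 and 80.7 untreated and 112 and 95.1 with XAV939. Only in untreated day 7 library 1 was Zeb1 the higher in CPM (97.7 against 85.5). Both genes share exon sequence with antisense transcripts in the annotation, Zeb2 with Zeb2os over 653 bp and Zeb1 with Gm10125 over 198 bp, and the strand setting of the counting is not given in the sources used here.

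Twist1, a basic helix-loop-helix factor of mesoderm and mesenchyme (chr12:33957671-33959829, plus strand), had higher means at each later day. Its untreated means were 0.371, 1.43, 3.86, 13.6 and 19.8 CPM from day 3 to day 7, and its XAV939 means 0.451, 1.30, 2.89, 6.06 and 14.9 CPM. The step from day 6 to day 7 was called in the XAV939 arm (log2 1.29, SE 0.281, adjusted p = 0.00265) and not in the untreated arm (adjusted p = 0.187), and the other steps were called in both arms. Whether the last step itself differs between the arms was not tested on its own.

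Snai2, the Snail factor of neural crest and mesenchyme (chr16:14705852-14709385, plus strand), was low throughout and rose late. Its mean stayed between 0.351 and 0.784 CPM in both arms up to day 5. The untreated libraries then held 7.97, 1.23, 1.49 and 1.52 CPM at day 6 and 7.05, 1.73, 7.38 and 1.89 CPM at day 7. A single library carried the day 6 mean, and at day 7 a pair of libraries was high and a pair low. The step from day 5 to day 6 was called in the untreated arm (log2 2.03, SE 0.515, adjusted p = 0.00406), and without untreated day 6 library 1 it was 0.92 with an adjusted p of 0.169. With only the libraries compared the adjusted p of the step from day 5 to day 6 was 0.0715. Without untreated day 6 library 1 the step from day 6 to day 7 was called instead (1.67, adjusted p = 0.00975). The libraries with high Snai2 also had high endothelial marker sums (Pecam1, Cdh5, Kdr, Tek, Tie1): 72.0 CPM in day 6 library 1 against 8.3 to 10.9 CPM in the others of its group, and 150 and 96.9 CPM in day 7 libraries 1 and 3 against 40.01 and 54.6 CPM. Somite and mesenchyme markers summed to 316 CPM in day 6 library 1 against 143 to 242 CPM, and to 273 and 291 CPM in day 7 libraries 1 and 3 against 176 and 226 CPM. The part of these markers in the Snai2 values was not tested. From day 3 to day 7 the log2 change was 2.75 (SE 0.525, adjusted p = 2.34e-05) untreated and 1.65 (SE 0.521, adjusted p = 0.00543) with XAV939.

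Snai1, the Snail factor that mouse gastrulation depends on (chr2:167538195-167542814, plus strand), had no net rise. It was 3.20 ± 1.60 CPM at day 3 and 3.75 ± 0.591 CPM at day 7 in the untreated arm, and the log2 change of 0.22 had a 95% interval of -0.83 to 1.28 (adjusted p = 0.718). The untreated libraries held 8.47, 1.98, 2.63 and 2.48 CPM at day 4, 17.1, 6.14, 9.44 and 1.58 CPM at day 5 and 3.76, 3.17, 12.0 and 3.69 CPM at day 6. Snai1 was thus high in 1 library at day 4, in 3 at day 5 and in 1 at day 6. The day 4 library was the one with the high streak marker sum, and the day 6 library had the highest streak marker sum of its group (271 CPM against 97.3 to 215 CPM). At day 5 the streak marker sums of the 4 untreated libraries were 548, 780, 664 and 533 CPM, and library 1, with the highest Snai1, was close to library 4, with the lowest. The part of these cells in the Snai1 values was not tested. The step from day 4 to day 5 was not called in the untreated arm (log2 1.14, adjusted p = 0.129), but was 1.86 with an adjusted p of 0.0124 without untreated day 4 library 1 and 1.50 with 0.0307 without untreated day 5 library 4.

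Vim, the mesenchymal filament gene (chr2:13573927-13582826, plus strand), rose from 34.6 ± 3.43 to 284 ± 84.3 CPM in the untreated arm and from 33.6 ± 2.12 to 398 ± 135 CPM in the XAV939 arm between day 3 and day 7. The log2 changes were 3.04 (SE 0.287, adjusted p = 2.81e-11) and 3.57 (SE 0.294, adjusted p = 1.06e-12). In the untreated arm the steps to day 4, day 5 and day 7 were called, with a plateau between day 5 (137 ± 25.1 CPM) and day 6 (131 ± 33.9 CPM). In the XAV939 arm the steps to day 5, day 6 and day 7 were called. Its step to day 5 (adjusted p = 0.0411) was lost without library 1, 2 or 4 of day 4 or library 1 or 2 of day 5 (0.056 to 0.137). It was also lost with no filter on low counts (0.0659). The XAV939 step to day 7 was lost without day 6 library 3 (0.0611) and with only the libraries compared (0.115). The XAV939 step to day 4 (0.0511) was called without day 4 library 4 (0.0297). It was also called with a replicate block over all days (0.0318), with only the libraries compared (0.0102) and without the 2 libraries that stood apart (0.038). The untreated step to day 7 was lost with only the libraries compared (0.0557).

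Fn1 (chr1:71585520-71653200, minus strand) was the most abundant of the 8 genes per kilobase of exon at day 3, with 24.5 ± 4.84 CPM per kb in the untreated arm, against 7.29 for Vim and 0.623 for Cdh2. It rose in 1 step, from day 4 to day 5: from 299 ± 150 to 964 ± 520 CPM untreated (log2 1.69, SE 0.301, adjusted p = 0.000113) and from 214 ± 59.4 to 439 ± 123 CPM with XAV939 (1.04, SE 0.296, adjusted p = 0.00705). Fn1 shares 292 bp of exon with the antisense gene Apol7d. Over the whole course the log2 change was 1.69 (SE 0.301, adjusted p = 7.79e-06) untreated and 1.29 (SE 0.298, adjusted p = 0.000265) with XAV939.

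The single steps can be read against all genes. From day 3 to day 4, 5 of the 8 genes rose in the untreated arm (Twist1, Zeb1, Zeb2, Vim, Cdh2), where 17.6% of all genes tested were higher and 15.1% lower, and 4 in the XAV939 arm (Twist1, Zeb1, Zeb2, Cdh2), where 20.3% were higher and 17.7% lower. From day 4 to day 5, Twist1, Zeb1, Vim, Fn1 and Cdh2 rose in each arm, where the background was 10.5% higher and 8.17% lower untreated and 15.9% and 15.2% with XAV939. From day 5 to day 6, Snai2, Twist1 and Zeb1 rose in the untreated arm (11.1% and 8.72% of all genes) and Twist1 and Vim in the XAV939 arm (9.27% and 7.68%). From day 6 to day 7, Vim rose in the untreated arm (5.17% and 7.02%) and Twist1 and Vim in the XAV939 arm (4.2% and 2.96%). None of the 8 genes was called lower in any step, nor had a negative change at an unadjusted p under 0.05. Neighbouring steps share a group, so they are not independent of each other.

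XAV939 was compared with untreated at each day. No member was called at day 3, where 0% of all genes tested were called higher and 0.00592% lower, at day 4 (0% and 0.0178%) or at day 7 (0% and 0.00592%). Snai1 and Fn1 were lower with XAV939 at day 5, when 0.912% of all genes were higher and 1.43% lower, and Twist1 was lower at day 6, when 1.39% were higher and 2.95% lower. No member was called higher with XAV939 at any day, and Zeb2 at day 6 was the 1 positive change at an unadjusted p under 0.05. DESeq2 also called 0 members at days 3, 4 and 7. At an unadjusted p under 0.05 there was 1 member at day 3 (Zeb2), 0 at day 4 and 1 at day 7 (Snai2).

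**Figure D2:**
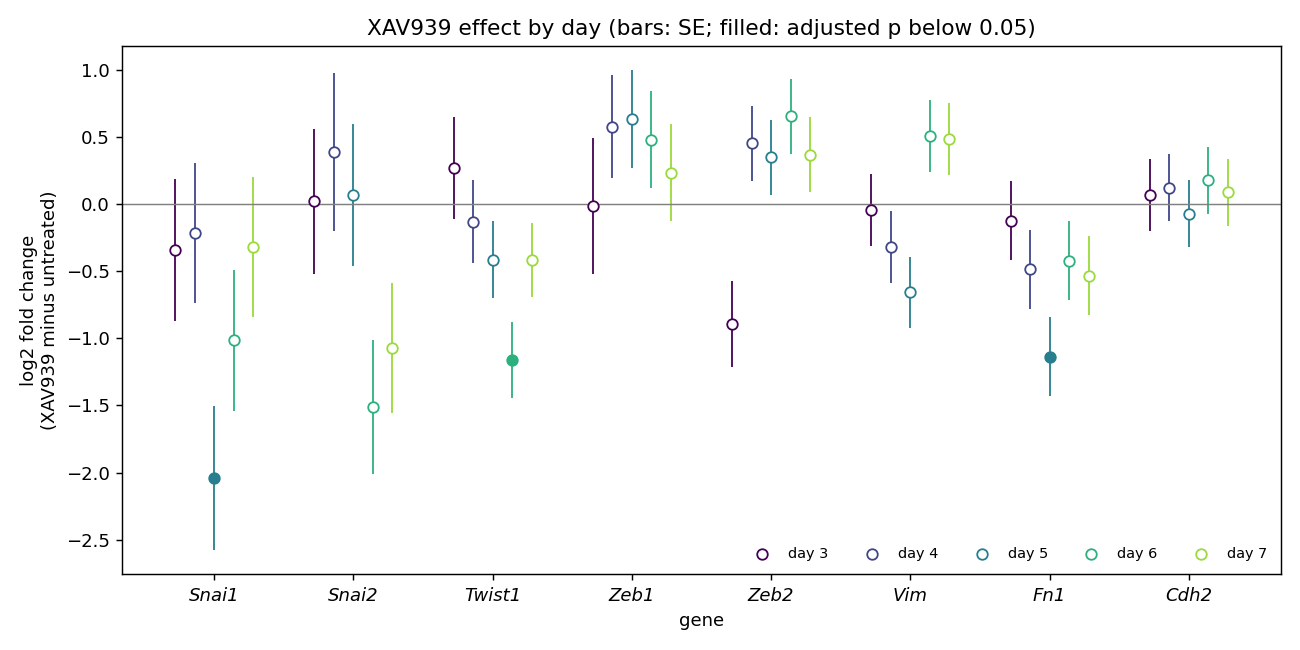
Log2 fold change of XAV939 minus untreated for each gene at each day, with bars of 1 SE and filled points where the adjusted p was below 0.05 (4 libraries a group). Filled points are Snai1 and Fn1 at day 5 and Twist1 at day 6, and the 5 points of Cdh2 lie near 0.

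At day 5 Snai1 was 17.1, 6.14, 9.44 and 1.58 CPM in the untreated libraries and 2.86, 2.73, 2.09 and 0.592 CPM in the XAV939 libraries. The untreated library 4 lay within the range of the XAV939 libraries, and the other 3 lay above it. The log2 fold change was -2.04 (SE 0.539, 95% interval -3.13 to -0.95, adjusted p = 0.0352), a 4.11-fold lower level, and the XAV939 library was the lower in 4 of 4 pairs of the same replicate number. Without untreated day 5 library 1 the change was -1.46 (adjusted p = 0.223), and the call was kept in 2 of the 8 fits that left out a library of day 5. It was lost without untreated library 2 or 3 or XAV939 library 2, 3 or 4 as well (adjusted p = 0.0534 to 0.175). It was also lost with only the libraries of day 5 in the fit (adjusted p = 0.18) and with no filter on low counts (0.0545). Streak and nascent mesoderm markers (T, Mixl1, Eomes, Mesp1, Tbx6, Msgn1) summed to 533 to 780 CPM untreated and 139 to 410 CPM with XAV939 at day 5, and their part in the Snai1 value was not tested.

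Fn1 at day 5 was 1667, 824, 946 and 420 CPM untreated and 567, 496, 409 and 282 CPM with XAV939. As for Snai1, only untreated library 4 overlapped the XAV939 range. Its log2 fold change was -1.14 (SE 0.296, adjusted p = 0.0321), with the XAV939 library lower in 4 of 4 pairs. The change was -0.74 (adjusted p = 0.259) without untreated day 5 library 1, which also had the highest somite and mesenchyme marker sum of its group (42.6 CPM against 5.1 to 11.5 CPM), and the part of those cells was not tested. The call was also lost without untreated library 2 or XAV939 library 2, 3 or 4 (adjusted p = 0.0612 to 0.177), with only the libraries of day 5 in the fit (0.177) and with no filter on low counts (0.0534). At day 7 Fn1 was 906, 799, 1182 and 824 CPM untreated and 650, 625, 695 and 598 CPM with XAV939. The day 7 groups did not overlap, but the adjusted p was 0.75, and 0.0104 when day 7 alone was fitted with a replicate block. In the F test of all 5 XAV939 effects together Fn1 was the 1 member called (adjusted p = 0.0461), where 5.8% of all genes tested were called. It stayed called in 13 of 40 fits that left out 1 library, with adjusted p from 0.00694 to 0.155, highest without untreated day 5 library 1.

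Twist1 at day 6 was 19.1, 8.31, 18.6 and 8.24 CPM untreated and 4.96, 5.56, 8.89 and 4.82 CPM with XAV939. The untreated libraries fell into a high and a low pair, and 1 XAV939 library lay just above the low pair. The log2 fold change was -1.16 (SE 0.281, 95% interval -1.73 to -0.59, adjusted p = 0.0111), a 2.24-fold lower level, lower in 4 of 4 pairs. It was -0.95 (adjusted p = 0.0607) without untreated day 6 library 1 and -0.96 (0.0686) without untreated day 6 library 3, and it was also lost without XAV939 library 1 (0.0595) or 4 (0.0625) of that day. With the replicate block in a fit of day 6 alone the adjusted p was 0.0984, and it was 0.213 in the fit of day 6 alone without a block. Somite and mesenchyme markers (Meox1, Foxc1, Tcf15, Prrx1, Pax1, Tbx18) summed to 143 to 316 CPM untreated and 85.7 to 139 CPM with XAV939 at day 6, and their part in the Twist1 value was not tested.

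Snai2 had lower means with XAV939 at the later days. At day 6 the XAV939 libraries held 1.89, 0.716, 0.81 and 0.86 CPM against the untreated values given above, and at day 7 they held 3.08, 1.70, 2.99 and 0.783 CPM. In each of the 4 same-number pairs the XAV939 library was the lower on both days. The adjusted p was 0.0798 at day 6 and 0.53 at day 7, and 0.00678 and 0.0496 with a replicate block inside each day. Without untreated day 6 library 1 the day 6 log2 change of Snai2 was -0.40 (adjusted p = 0.654), and without untreated day 6 library 4 it was -1.73 (0.0359). The endothelial marker sum was 8.3 to 72.0 CPM untreated and 5.7 to 12.3 CPM with XAV939 at day 6.

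Zeb1 and Zeb2 had higher means with XAV939 from day 4 on, and neither was called. At day 6 Zeb2 was 57.8, 60.4, 19.6 and 90.2 CPM untreated and 76.4, 94.3, 79.9 and 108 CPM with XAV939, with a log2 change of 0.65 (95% interval 0.09 to 1.22, adjusted p = 0.218, and 0.0217 with the block within each day). Without untreated day 6 library 4 it was 0.97 (adjusted p = 0.035). Zeb2 was called in only 1 of the 8 fits that left out a library of day 6. Its change ran from 0.38 to 0.97 in them, with adjusted p from 0.035 to 0.672. At day 7 the Zeb2 groups did not overlap, at 77.1 to 96.7 CPM untreated and 104 to 126 CPM with XAV939 (log2 0.37, adjusted p = 1, and 0.014 in the blocked fit of day 7 alone). Zeb1 at day 5 was 25.7, 16.8, 24.8 and 20.2 CPM untreated and 27.5, 38.7, 27.8 and 42.0 CPM with XAV939, groups that did not overlap (log2 0.64, 95% interval -0.10 to 1.38, adjusted p = 0.519). For both genes the XAV939 library was the higher in all 4 pairs at days 5, 6 and 7. At day 3 Zeb2 was the lower with XAV939 in all 4 pairs, at 1.50 to 2.80 CPM against 3.02 to 4.55 CPM, with an unadjusted p of 0.00829 and an adjusted p of 1. Neural progenitor markers (Sox1, Pax6, Sox2, Hes5, Sox3) summed to 60.3 to 113 CPM untreated and 119 to 219 CPM with XAV939 at day 5, and to 93.7 to 167 and 182 to 255 CPM at day 6. Their part in the Zeb1 and Zeb2 values was not tested.

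Vim had opposite differences at day 5 and day 7. At day 5 it was 160, 154, 126 and 106 CPM untreated and 95.8, 109, 75.7 and 65.8 CPM with XAV939, lower in 4 of 4 pairs (log2 -0.66, SE 0.267, adjusted p = 0.241). At day 7 it was 374, 306, 171 and 284 CPM untreated and 514, 438, 203 and 437 CPM with XAV939, higher in 4 of 4 pairs (log2 0.49, SE 0.265, adjusted p = 0.735). In the blocked fits of day 5 alone and day 7 alone the adjusted p was 0.00551 and 0.00991. The F test of the differences between the XAV939 effects of the days gave Vim an adjusted p of 0.425 and Zeb2 the lowest of the 8, 0.358. That test called 0 members and 0.231% of all genes. DESeq2 also called 0 members, and 3 had an unadjusted p under 0.05 (Twist1, Zeb2 and Vim). At day 7 the neuron marker sum (Tubb3, Elavl3, Elavl4, Stmn2, Dcx) was 58.0 to 164 CPM untreated and 123 to 554 CPM with XAV939, and library 3 had the lowest Vim and the lowest neuron sum in both arms. The part of neurons in the Vim values was not tested.

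Cdh2 was not called at any day. The log2 change with XAV939 was 0.07 at day 3 (95% interval -0.48 to 0.62), 0.12 at day 4 (-0.38 to 0.63), -0.07 at day 5 (-0.57 to 0.43), 0.18 at day 6 (-0.33 to 0.68) and 0.09 at day 7 (-0.42 to 0.59). Its means at day 6, the highest of the course, were 272 ± 78.1 CPM untreated and 307 ± 32.0 CPM with XAV939. No interval reached beyond 0.68 log2 units in either direction.

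Cdh1, the E-cadherin gene that Snail and Zeb factors repress, was set beside Cdh2 per kilobase of exon. Cdh1 fell from 1075 ± 46.0 to 170 ± 41.0 CPM in the untreated arm (log2 -2.66, SE 0.277, adjusted p = 2.57e-10) and from 1142 ± 151 to 101 ± 24.8 CPM in the XAV939 arm (-3.50, SE 0.287, adjusted p = 9.45e-13) between day 3 and day 7. With XAV939 Cdh1 was lower at day 5 (log2 -1.02, SE 0.263, adjusted p = 0.0311) and day 6 (-1.50, SE 0.267, adjusted p = 0.000719). The day 5 call was lost without untreated library 1 or 2 or XAV939 library 2 or 4 (adjusted p = 0.0735 to 0.175), and the day 6 call was kept in all 8 fits that left out a library of that day. With only the libraries compared the adjusted p was 0.149 at day 5 and 0.109 at day 6. At day 7 Cdh1 was 133 to 225 CPM untreated and 69.3 to 128 CPM with XAV939, groups that did not overlap, lower in 4 of 4 pairs and not called (log2 -0.76, adjusted p = 0.272, and 0.0374 with the replicate block within each day). The median ratio of Cdh2 to Cdh1 was 0.00265 untreated and 0.0027 with XAV939 at day 3. It was 0.402 and 0.87 at day 5, 0.883 and 2.54 at day 6 and 0.864 and 1.52 at day 7. At day 6 the ratio ran from 0.365 to 1.29 in the untreated libraries and from 1.74 to 3.38 in the XAV939 libraries, which did not overlap. The ratio is a description and was not tested.

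**Figure D3:**
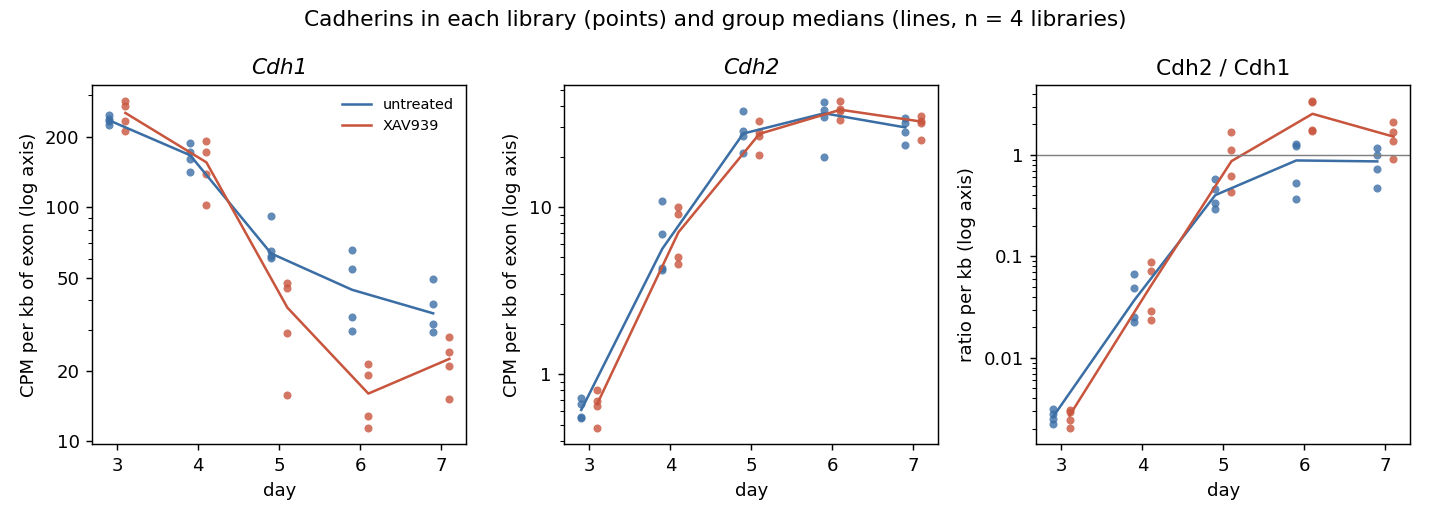
Cdh1 and Cdh2 in CPM per kb of exon and their ratio, on log axes, against day, with 1 point for each library and lines through group medians (4 libraries a group). Cdh2 runs together in the arms while Cdh1 is lower with XAV939 at days 5, 6 and 7, called at the first 2 of these, and the ratio at day 6 is 0.365 to 1.29 untreated and 1.74 to 3.38 with XAV939.

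Per kilobase of exon the ratio of Snai2 to Snai1 had a median of 0.0681 untreated and 0.26 with XAV939 at day 5, and 0.88 and 0.611 at day 7. Its ranges overlapped between the arms at each day.

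Cdh1 was 1 of 27 genes in a list of epithelial genes and their safeguards, the junction, keratin and splicing genes that EMT factors repress and the factors that maintain them. From day 3 to day 7, 22 of the 27 fell and 1 rose in the untreated arm, and 23 fell and 1 rose in the XAV939 arm. Over all genes tested, 32.6% were lower and 34.7% higher untreated, and 34.1% and 36.8% with XAV939. The median log2 change of the 27 was -2.28 untreated and -3.09 with XAV939. Ocln, which encodes a tight junction protein, fell from 44.4 ± 2.67 to 9.13 ± 2.11 CPM untreated, and Epcam, an epithelial adhesion gene, from 330 ± 18.9 to 53.4 ± 10.1 CPM. With XAV939 10 of the 27 were lower at day 5 (median log2 change -1.02) and 19 at day 6 (median -1.50). Over all genes tested, 1.43% were lower at day 5 and 2.95% at day 6. None of the 27 was called at days 3, 4 and 7. On those days 0, 1 and 19 had an unadjusted p under 0.05, and DESeq2 called 0, 0 and 1. Without the 2 untreated libraries that stood apart 15 were lower at day 5 and 18 at day 6, and with a library of the day left out 3 to 13 and 16 to 19, fewest without XAV939 day 5 library 4. A fit of only the libraries of the day called 0 at each day, with 19 and 20 genes at an unadjusted p under 0.05 at days 5 and 6. With the replicate block within each day 19 were lower at day 5, 19 at day 6 and 12 at day 7. At day 6 Epcam was 70.6 ± 33.3 CPM untreated and 21.3 ± 5.71 CPM with XAV939, Cldn7 16.5 ± 10.6 and 3.14 ± 0.887 CPM, and Grhl2, which guards the epithelial state, 18.8 ± 5.64 and 6.94 ± 1.61 CPM. At day 6 endoderm markers, epithelial in part, summed to 140 to 202 CPM untreated and 65.2 to 108 CPM with XAV939. Epiblast markers, of an epithelium too, summed to 263 to 520 CPM untreated and 152 to 236 CPM with XAV939 at that day, with 2 of 5 called lower. The part of either marker list in the epithelial genes was not tested.

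**Figure D4:**
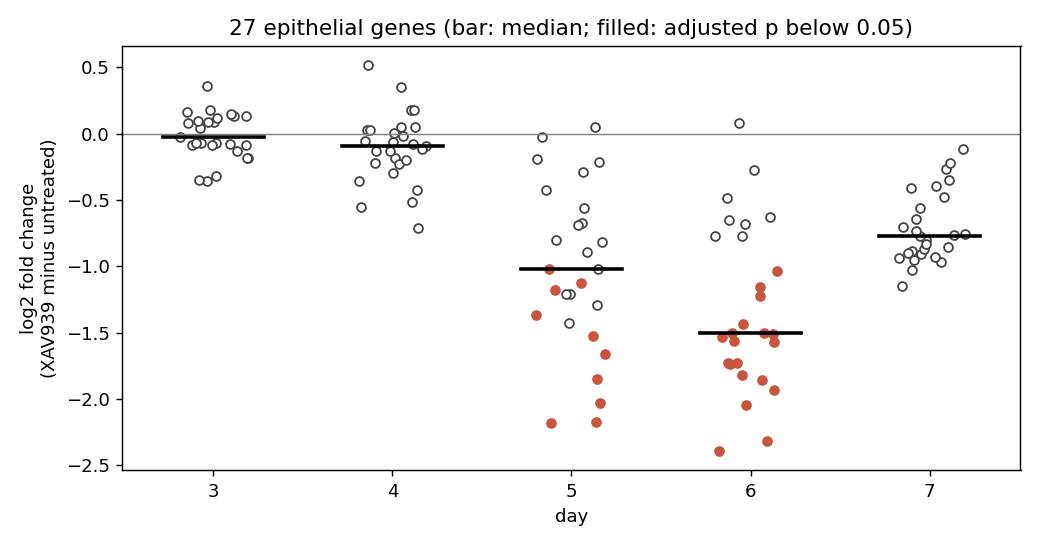
Log2 fold change of XAV939 minus untreated for 27 epithelial genes at each day, with a bar at the median and filled points where the adjusted p was below 0.05. Filled points number 10 at day 5 and 19 at day 6, all below 0, and the medians at those days are -1.02 and -1.50.

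Other EMT transcription factors moved mostly as the 8 genes did over time. Of 11 such factors, 8 rose and 2 fell from day 3 to day 7 in each arm, with a median log2 change of 1.67 untreated and 1.91 with XAV939. Over all genes tested, 34.7% rose and 32.6% fell untreated, and 36.8% and 34.1% with XAV939. Foxc2, a mesenchyme forkhead factor, went from 0.00674 to 25.1 CPM untreated, and Prrx1, a factor of limb and head mesenchyme, from 0.0275 to 20.8 CPM. Snai3 and Klf8 were the pair that fell, Snai3 from 4.49 to 0.113 CPM and Klf8 from 19.1 to 3.31 CPM in the untreated arm. With XAV939 1 of the 11 was lower at day 5, Foxc2 (log2 -4.06, SE 0.71, adjusted p = 0.0021), at 2.26 ± 3.16 CPM untreated and 0.131 ± 0.0247 CPM with XAV939. Over all genes tested, 1.43% were lower at that day.

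A list of 17 other cadherin genes included Cdh1. From day 3 to day 7, 11 of the 17 rose and 5 fell in the untreated arm, and 12 and 5 in the XAV939 arm. Over all genes, 34.7% and 36.8% were higher and 32.6% and 34.1% lower in the untreated and the XAV939 arm. Cdh6 rose from 0.15 to 73.9 CPM and Cdh11, the mesenchymal cadherin, from 3.20 to 139 CPM in the untreated arm. With XAV939 Cdh7 was higher and Cdh1 lower at day 5, and Cdh8, Cdh20 and Cdh22 were higher and Cdh1 and Cdh18 lower at day 6. At day 5, 0.912% of all genes tested were higher with XAV939 and 1.43% lower, and at day 6 1.39% and 2.95%. With a library of day 5 left out, 0 to 1 cadherins were higher and 0 to 1 lower. With a library of day 6 left out, 0 to 4 cadherins were higher and 1 to 3 lower. Among 6 catenins of cadherin junctions, Ctnna2, the neural α-catenin, was higher with XAV939 at day 5 (8.54 ± 3.46 against 2.69 ± 1.05 CPM) and day 6 (13.2 ± 5.46 against 4.93 ± 1.14 CPM), and no other was called. The Ctnna2 call at day 6 was lost without XAV939 library 1 (adjusted p = 0.0717), and with only the libraries compared the adjusted p was 0.0916 at day 5 and 0.111 at day 6. Of 9 fibronectin receptors tested, edgeR called 0 with XAV939 at each day. At an unadjusted p under 0.05 there were 0, 2, 4, 3 and 1 from day 3 to day 7, and DESeq2 called 0, 1, 1, 2 and 0. Over the course Itgb8 and Itga9 rose and the syndecan gene Sdc4 fell in each arm, Sdc4 from 113 ± 24.4 to 15.3 ± 1.49 CPM untreated.

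Contractile and matrix genes often used as mesenchymal markers were counted beside Vim. Of 15 tested, 5 rose and 7 fell from day 3 to day 7 in each arm. Over all genes tested, 34.7% were higher and 32.6% lower untreated, and 36.8% and 34.1% with XAV939. Tagln, Cnn1, Myl9 and Acta2, of actin filaments and contraction, fell, Acta2 from 115 ± 26.9 to 4.12 ± 4.19 CPM untreated, whereas the matrix gene Tnc and the protease gene Mmp2 rose. With XAV939 at day 6 Tnc (1.11 ± 0.28 against 11.8 ± 12.0 CPM) and Tpm1 (137 ± 20.3 against 226 ± 53.1 CPM) were lower. At that day 1.39% of all genes tested were higher and 2.95% lower. With a library of day 6 left out, 2 to 3 genes of this list were lower. Among 8 other intermediate filament genes, Nes and Nefm, of neural progenitors and neurons, were higher with XAV939 at day 6, Nes at 273 ± 78.0 against 120 ± 36.7 CPM. With a library of day 6 left out, 1 to 2 of these filament genes were higher, and with a library of day 7 left out 0 to 4.

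A list of 13 genes that feed gastrulation EMT was also counted. With XAV939, 1 of the 13 was lower at day 4 (the Brachyury gene T), 1 at day 5 (Tgfb1) and 3 at day 6 (Eomes, Tgfb2 and Nodal), where 0.0178%, 1.43% and 2.95% of all genes tested were lower. With a library of the day left out the counts ran from 0 to 1 at days 4 and 5 and from 1 to 5 at day 6, and that of day 4 was 0 without untreated library 1, which stood apart. Eomes, a T-box factor of the streak, was 69.6 ± 29.3 CPM untreated and 12.0 ± 5.33 CPM with XAV939 at day 6 (log2 -2.54, SE 0.49, adjusted p = 0.00176). Tgfb2, a ligand that induces EMT, rose from 0.441 ± 0.201 to 101 ± 18.9 CPM from day 3 to day 7 in the untreated arm.

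The genes whose course was most like each of the 8 were found from the 10 group means of log2 CPM, each gene centred on its own mean, as the smallest root mean square difference among 11902 genes with at least 5 CPM in their highest group. For Cdh2 they were Fkbp14 (0.18), Col4a6 (0.26) and Syt6 (0.39), for Zeb1 Pygo1 (0.23), Lix1l and Dpysl4, and for Zeb2 Ntrk3 (0.31), Pknox2 and D130058E05Rik. For Twist1 they were Gm50321 (0.29), Rhoj and Capn6, for Snai2 Micall2 (0.26), Eya1 and Ddc, and for Snai1 Plekhg3 (0.26), Bmp7 and Ltbr. For Vim they were Pogk (0.25), Fbxl7 and Dock4, and for Fn1 Itpr2 (0.24), Ankrd33b and Vegfc. Among the 8 genes themselves the closest pair was Snai2 and Fn1 (0.58) and the farthest Snai1 and Zeb1 (2.51). This measure counts the size of a change as well as its timing. The group means spanned 1.80 log2 units for Snai1, 2.15 for Fn1, 3.21 for Snai2 and 7.10 for Zeb1. A small value need not mean the same timing, as Fn1 rose from day 4 to day 5 and Snai2 after day 5.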

How the data were processed

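The authors deposited raw counts per gene, as whole numbers with no normalisation. Per the labels' protocols, 300 ng of RNA went into each stranded TruSeq library, and 81 bp pairs were read to a planned 36 M. The submitters' processing notes name bcl2fastq 2.20.0 and mm10. The aligner, counter and strand setting were not given in the sources used here. Gene coordinates and exon lengths are from GENCODE M21 (mm10), in which 26857 of the 26906 identifiers were found, and promoters are from RefSeq (GRCm38.p6).

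Genes were tested with edgeR 4.0.16 (limma 3.58.1, R 4.3.3): filterByExpr (minimum count 10, minimum total 15), TMM scaling, and 1 robust quasi-likelihood fit of 10 group means to all 40 libraries (30 residual degrees of freedom, prior 5.19), with Benjamini-Hochberg adjustment over 16878 genes. Of all genes, 508 had 0 counts in every library. The 95% intervals are log2 change ± the t quantile times SE. The labels do not say that libraries of a group are separate cultures, so a p-value reflects the spread of these libraries, which may be technical. The smallest chi-square per gene over 60 pairs of libraries of 1 group was 10.9, so none was a copy. The fit was tested on simulated data.

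Within a day, replicate numbers pair the arms: the deviations of same-numbered libraries correlated at 0.145 to 0.523 in all 20 pairs, and 20 of 20 libraries correlated best with their own number. The pairing comes from this check, since the labels do not explain the numbers. The main fit did not use this pairing, so its SE, intervals and p-values for XAV939 are for unpaired groups. Member calls in single contrasts that changed with a replicate block are given with each gene. Library 1 had the lowest mitochondrial share of its group except in untreated day 6, where library 3 had it (0.915%). What library 1 shares across days is not given in the labels. Members, lists and tests were chosen with earlier results of these data known. Named genes are the 8 members, up to 4 of each list with the smallest adjusted p (the highest means where fewer than 2 passed), and the 3 genes most like each member. Alternatives were RLE size factors, DESeq2 1.42.0, other filters, fits of only the libraries compared, replicate blocks, and libraries left out. A block in fits of 1 day, and counts of the other lists under these alternatives, were added after the data were seen.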

Additional observations from a re-analysis of the deposited data

Results flagged for a closer look

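In 10 of 80 sets, each of 1 gene in 1 group of 4 libraries, 1 library lay far from the other 3. The rule used flags about 1 in 20 sets when values are independent and normally distributed. The 80 sets are 8 genes in the same 10 groups and share libraries, and several flagged values are low. The count therefore cannot be read as an excess. Snai1 was high in untreated day 4 library 1 (8.47 CPM), untreated day 6 library 3 (12.0 CPM) and XAV939 day 7 library 2 (4.21 CPM). Snai2 was high in library 1 of day 6 in both arms, at 7.97 CPM untreated and 1.89 CPM with XAV939, and low in XAV939 day 5 library 3 (0.372 CPM). Zeb1 was high in untreated day 4 library 4 (7.19 CPM) and low in XAV939 day 3 library 1 (0.24 CPM). Zeb2 was low in untreated day 5 library 2 (41.1 CPM), and Twist1 was high in XAV939 day 3 library 3 (0.7 CPM).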

How the results depend on the processing

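Of 120 member values over the contrasts, 44 were called. All 44 kept their direction under every alternative run, 8 lost their call under at least 1, and 15 uncalled values were called under at least 1. No called value changed sign. With XAV939 the number of members called at day 5 was 0 with no filter on low counts and 0 with only the libraries compared, and 0 to 2 with a library left out. At day 6 it was 3 with the replicate block within each day, 0 with only the libraries compared, 0 without the 2 untreated libraries that stood apart, 0 with the block in a fit of 1 day, and 0 to 3 with a library left out. At day 7 it was 1 with the block within each day and 3 in the blocked fit of 1 day. With only the libraries compared, the untreated steps called 1 member from day 5 to day 6 and 0 from day 6 to day 7, and the XAV939 arm called 4 from day 5 to day 6. Leaving out a library gave 1 to 3 and 1 to 2 members in those untreated steps and 1 to 2 in the XAV939 step from day 6 to day 7. The F test of any XAV939 effect called 0 members with no filter, 3 with the block over all days, 5 with the block within each day, 4 in DESeq2, and 0 to 3 with a library left out. Cdh2, uncalled at each day, changed sign with XAV939 without the 2 libraries at day 6 (log2 -0.0066). The day 6 library left out in that fit had the lowest Cdh2 of its group. With a library left out, the Cdh2 change ran from -0.21 to 0.0911 at day 5 and from -0.0063 to 0.18 at day 7. A filter of 5 CPM left Snai2 untested, and day contrasts cannot be had with the block within each day. The block over all days moved no count by over 1.5 times except in the F test. With only the libraries compared, 0 genes of the other lists were called with XAV939 at any day. The cause of these differences was not tested. Depth limits Snai2 up to day 5 and the day 3 levels of Zeb1 and Twist1 most, which are all low.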
